A study of Mus musculus with 30 samples.

Results

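Liver gene expression was compared between 5 PPARα-null (Null) mice given 10 mg/kg perfluorooctane sulfonate (PFOS) and 5 Null mice given 0 mg/kg, 1 Affymetrix mouse genome array per mouse. These are 10 of the 30 arrays of the series, chosen by their labels, and the comparison ran over all 12156 genes that could be read. The Null 10 mg/kg mice received PFOS as its potassium salt in 0.5% Tween 20 by gavage on 7 consecutive days, and the Null 0 mg/kg mice received the vehicle in the same way. All were males aged 6 to 9 months of the strain 129S4/SvJae-Pparatm1Gonz/J, in which Ppara is disrupted in every tissue, and RNA was taken from the left liver lobe. Further groups entered only beside these results. The 5 Null 3 mg/kg mice shared the fit, and 5 wild-type (WT) mice at 10 mg/kg and 5 at 0 mg/kg, of the strain 129S1/SvlmJ, served to ask where a change differed between genotypes. The WT mice are of another substrain, so genotype and substrain cannot be told apart. Mice were housed 5 per cage, and the labels do not give the cage of a mouse.

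PPARα is a nuclear receptor that, in mouse liver, switches on genes of fatty acid oxidation and of peroxisomes when fatty acids or fluorinated surfactants such as PFOS activate it. Null liver lacks this receptor but keeps others that sense foreign chemicals, among them the constitutive androstane receptor CAR, known for inducing cytochrome P450 genes, and the transcription factor NRF2, known for inducing genes of glutathione and redox metabolism. Sterol synthesis is controlled by the transcription factor SREBP2, and bile acid synthesis, which starts from cholesterol, by its rate-limiting enzyme Cyp7a1. The comparison asks which liver transcripts respond to 10 mg/kg PFOS where PPARα is absent.

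Values are log2 expression values as the authors deposited them, per array and in the order of replicates 1 to 5, and a change is the mean of the Null 10 mg/kg arrays minus the mean of the Null 0 mg/kg arrays. Array medians lay between 5.60 and 5.70, and 5 arrays in each group set the precision. Of the 12 defining hepatocyte transcripts listed, 10 were measured and limma called 0 (5 at an unadjusted p under 0.05, and 2 by the methods' t-test after Benjamini-Hochberg adjustment), and their summed level on the linear scale ranged from 100458 to 111676 at 10 mg/kg and from 104337 to 109846 at 0 mg/kg. Ppara itself still gave signal in Null mice (8.56 to 9.14 at 10 mg/kg and 9.08 to 9.55 at 0 mg/kg). Its change of -0.39 was called, and its other probe sets gave -0.47 and -0.28. Where its probe set lies relative to the disrupted part is not known here, so the signal does not check the label. Among arrays labeled WT 0 mg/kg, replicates 4 and 5 read Ppara at 8.45 and 8.52 and Cyp2b10 at 13.04 and 12.99, while replicates 1 to 3 read Ppara at 9.91 to 10.42 and Cyp2b10 at 8.11 to 8.43. Differences between genotypes are therefore given both with and without these 2 arrays, except where counts leave out another array.

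Null 10 mg/kg replicate 1 was the array least like its group. Its correlation with the mean of the other 4 arrays was 0.9711, against 0.9862 to 0.9939 for the other Null 10 mg/kg arrays and 0.9931 to 0.9958 for the Null 0 mg/kg arrays, across 24069 probe sets, which are not independent. In this array 677 probe sets (2.81%) lay more than 1 log2 unit below all other arrays of the group and 12 lay more than 1 above, whereas the other 9 arrays had 1 to 18 below and 4 to 32 above. The 3′ minus 5′ signal of the control probe sets, a sign of RNA quality, was 0.36 for actin and 0.07 for Gapdh in this array and ranged from 0.38 to 0.49 and from 0.09 to 0.22 in the other 9. The part of these features in the results was not tested. Each result below was also computed without this array, with the probe set of each gene kept. The text gives that value where it ends a call, moves a count by over 1.5 times, or belongs to a leading result. Some counts of few calls that moved by as much are not given.

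At 10 mg/kg PFOS, 1155 of the 12156 genes (9.50%) changed at an adjusted p under 0.05 from limma, 523 higher (4.30%) and 632 lower (5.20%). Most changes were small, since the median size of a called change was 0.45 on the log2 scale, 309 genes reached 1.5-fold, and 71 reached 2-fold (49 higher and 22 lower). In 812 of the called genes, all 5 treated arrays lay on one side of all 5 control arrays, as they did in 1172 (9.64%) of all genes. The median change over all genes was 0.003. The shares of 4.30% higher and 5.20% lower apply beside each list count below that uses all arrays. Without Null 10 mg/kg replicate 1, limma called 1234 genes, 533 higher (4.38%) and 701 lower (5.77%), of which 968 were among the 1155. At 3 mg/kg, 646 genes were called (5.31%, 256 higher and 390 lower) against the same 5 control arrays.

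**Figure D1:**
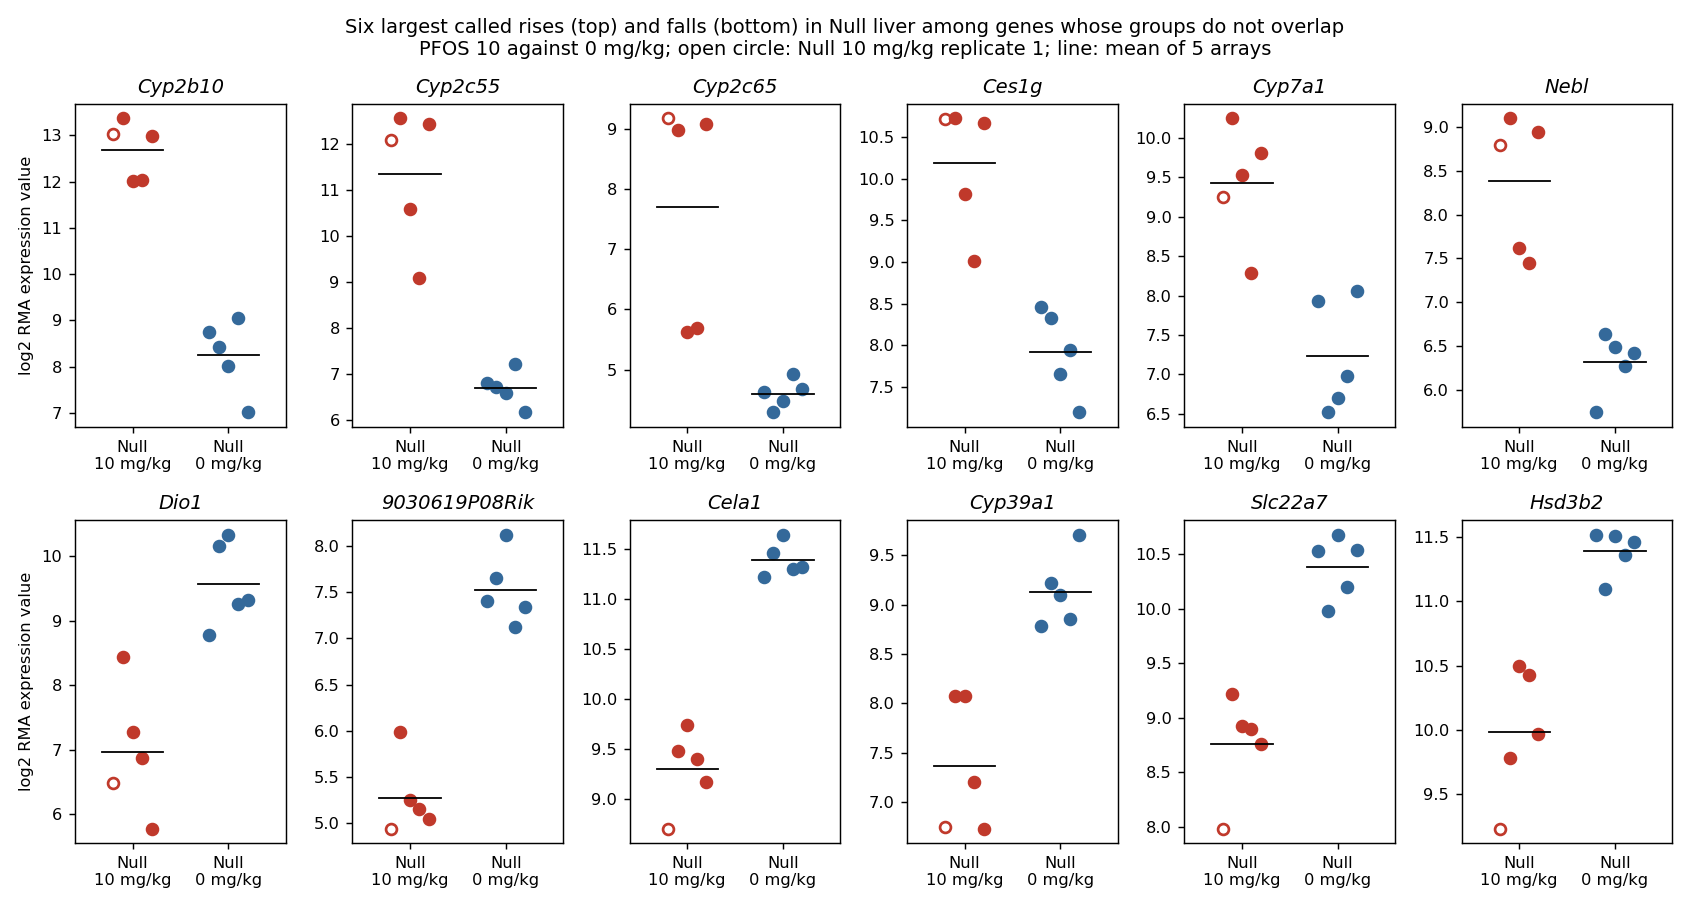
Log2 RMA values (vertical axes) of the 6 largest called rises (top row) and 6 largest called falls (bottom row) among genes whose groups did not overlap, with 1 point per array, Null 10 mg/kg at the left and Null 0 mg/kg at the right. Lines are means of 5 arrays, and the open circle is Null 10 mg/kg replicate 1. It lies on the treated side in every panel because these genes were chosen for groups that did not overlap.

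The largest called rises were in cytochrome P450 genes that CAR is known to induce, Cyp2c55 and Cyp2b10. Cyp2b10, the classical CAR target, read 13.04, 13.37, 12.02, 12.03, and 12.98 in Null 10 mg/kg mice, against 8.75, 8.43, 8.01, 9.05, and 7.01 in Null 0 mg/kg mice. Every treated array lay far above every control array, and the log2 change of 4.44 (SE 0.40, adjusted p = 3.9e-05) is 21.7-fold. Cyp2c55, another P450 of this kind, read 12.09, 12.56, 10.59, 9.10, and 12.44 in Null 10 mg/kg mice, against 6.81, 6.72, 6.60, 7.22, and 6.17 in Null 0 mg/kg mice, a log2 change of 4.65 (SE 0.56, adjusted p = 0.00037). Again no arrays overlapped, with replicates 3 and 4 the lowest of the treated arrays. Cyp2c65, a P450 of the same gene cluster as Cyp2c55, read 9.17, 8.97, 5.62, 5.69, and 9.08 in Null 10 mg/kg mice, against 4.62, 4.29, 4.48, 4.92, and 4.67 in Null 0 mg/kg mice. Replicates 3 and 4 stood well below the other 3 treated arrays but above all controls, which gave a log2 change of 3.11 (SE 0.66, adjusted p = 0.011). Without replicate 1 these changes were 4.35 (adjusted p = 0.00017) for Cyp2b10, 4.47 (adjusted p = 0.0008) for Cyp2c55, and 2.74 (adjusted p = 0.021) for Cyp2c65.

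Of 41 CAR targets listed, 32 were measured, 20 were called higher and 0 lower (against 4.30% of all genes called higher), and their median change was 0.59 against 0.003 over all genes. Without replicate 1 the counts were again 20 and 0 with a median of 0.59. The transporters Abcc2 and Abcc3, which export conjugates into bile and into blood, varied little from mouse to mouse. Abcc3 read 12.20, 12.09, 12.01, 11.71, and 12.00 in Null 10 mg/kg mice, against 11.24, 11.12, 11.26, 11.17, and 11.08 in Null 0 mg/kg mice, a log2 change of 0.82 (SE 0.12, adjusted p = 0.0012), and the groups stood apart. Abcc2 had a log2 change of 0.58 (SE 0.08, adjusted p = 0.00073), and Cyp3a13, a P450 of the steroid-metabolizing Cyp3a family, one of 0.70 (adjusted p = 0.0031). The glutathione transferase Gstm4 read 12.24, 12.31, 10.68, 10.72, and 12.33 in Null 10 mg/kg mice, against 9.89, 10.35, 10.55, 10.48, and 10.02 in Null 0 mg/kg mice. Replicates 3 and 4 lay just above the highest control and the other 3 treated arrays far above it (log2 change 1.40, SE 0.32, adjusted p = 0.017). Gstm3 (1.37, adjusted p = 0.017) and Gstm2 (0.97, adjusted p = 0.023) were called too, with overlapping groups. Genes of the Cyp2c, Gstm, and Ugt2b families have close copies that a probe set may read together, so the member that changed is uncertain. Gadd45b, a stress and growth gene induced through CAR, rose by 1.19 (adjusted p = 0.0051). Of the listed genes that did not pass, Cyp3a11, a major Cyp3a P450, was 0.11 (adjusted p = 0.29), and Nr1i3, which encodes CAR itself, 0.17 (adjusted p = 0.34).

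Alas1, the rate-limiting enzyme of heme synthesis that P450 enzymes depend on, read 12.84, 11.48, 12.31, 12.66, and 12.03 in Null 10 mg/kg mice, against 11.22, 10.82, 11.35, 9.31, and 11.31 in Null 0 mg/kg mice. No array overlapped, the lowest control being replicate 4, and the log2 change of 1.46 (SE 0.36, adjusted p = 0.023) is 2.75-fold. Of 19 genes of heme synthesis, heme breakdown, and P450 partners, 17 were measured. Of these, 3 were higher and 1 lower, against 4.30% and 5.20% of all genes. The higher ones were Alas1, the P450 electron donor Cyb5b, and the heme transporter Slc48a1. The lower one was the heme oxygenase Hmox2 (-0.30, adjusted p = 0.041, and 0.066 without replicate 1). Ces1g, a carboxylesterase of liver lipid metabolism, read 10.72, 10.73, 9.82, 9.01, and 10.68 in Null 10 mg/kg mice, against 8.46, 8.33, 7.65, 7.94, and 7.19 in Null 0 mg/kg mice. Its treated arrays all exceeded the controls, again with replicates 3 and 4 lowest (log2 change 2.28, SE 0.35, adjusted p = 0.0017). Of the 11 carboxylesterases and relatives measured, Ces2a (0.76, adjusted p = 0.0086) and Ces1d (0.93, adjusted p = 0.029) were the other 2 called, both higher. Among 4 measured targets of the aryl hydrocarbon receptor, Cyp1a1 and the quinone reductase Nqo1 were called higher (0.57, adjusted p = 0.015, and 0.94, adjusted p = 0.016), while Cyp1a2 (0.33, adjusted p = 0.078) and Tiparp (-0.20, adjusted p = 0.46) did not pass. The gene of the receptor, Ahr, rose by 0.50 (adjusted p = 0.028). Conjugating enzymes as a whole were divided. Of 37 measured, 10 were higher and 2 lower, against 4.30% and 5.20% of all genes, with a median of 0.01. The higher ones were led by Ugdh, which makes the glucuronic acid donor, Ugt2b35, and Gstt2. The lower ones were the mitochondrial transferase Gstk1 (-0.34, adjusted p = 0.037) and the sulfotransferase Sult5a1 (-0.86, adjusted p = 0.023).

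Targets of NRF2 rose in part, and the treated mice varied widely. Of 20 measured, 9 were higher and 0 lower (against 4.30% of all genes called higher), with a median of 0.42, and without replicate 1 these became 8 higher with a median of 0.34. Srxn1, which repairs oxidized peroxiredoxins, read 9.43, 9.42, 7.76, 8.25, and 9.04 in Null 10 mg/kg mice, against 7.17, 7.69, 7.82, 7.39, and 7.38 in Null 0 mg/kg mice. Replicates 1, 2, 4, and 5 exceeded all controls, while replicate 3 lay within their range (log2 change 1.29, SE 0.26, adjusted p = 0.0079). Pgd, a dehydrogenase that makes NADPH, read 10.60, 10.38, 9.38, 9.43, and 10.37 in Null 10 mg/kg mice, against 8.88, 9.21, 9.11, 9.10, and 8.87 in Null 0 mg/kg mice. Its groups stood apart by a narrow margin at replicates 3 and 4 (log2 change 1.00, SE 0.20, adjusted p = 0.0087). Gsr, glutathione reductase, and the aldehyde oxidase Aox1 were steadier, with changes of 0.66 and 0.89 (adjusted p = 0.006 for both). Cbr3, a carbonyl reductase, read 8.23, 7.51, 5.97, 5.60, and 6.97 in Null 10 mg/kg mice, against 5.78, 5.58, 5.66, 5.64, and 5.64 in Null 0 mg/kg mice. Replicate 1 was its highest array and replicate 4 lay among the controls, and its call ended without replicate 1 (log2 change 1.20, SE 0.35, adjusted p = 0.048 with it, and 0.85, adjusted p = 0.065, without it). Abcc4, an efflux transporter that is listed under both CAR and NRF2, showed the same spread (9.09, 7.90, 6.19, 6.11, and 7.36 at 10 mg/kg, against 5.86 to 6.24 at 0 mg/kg) and did not pass (adjusted p = 0.067). Nfe2l2, which encodes NRF2, was 0.29 (adjusted p = 0.12), and -0.20 by its other probe set.

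**Figure D2:**
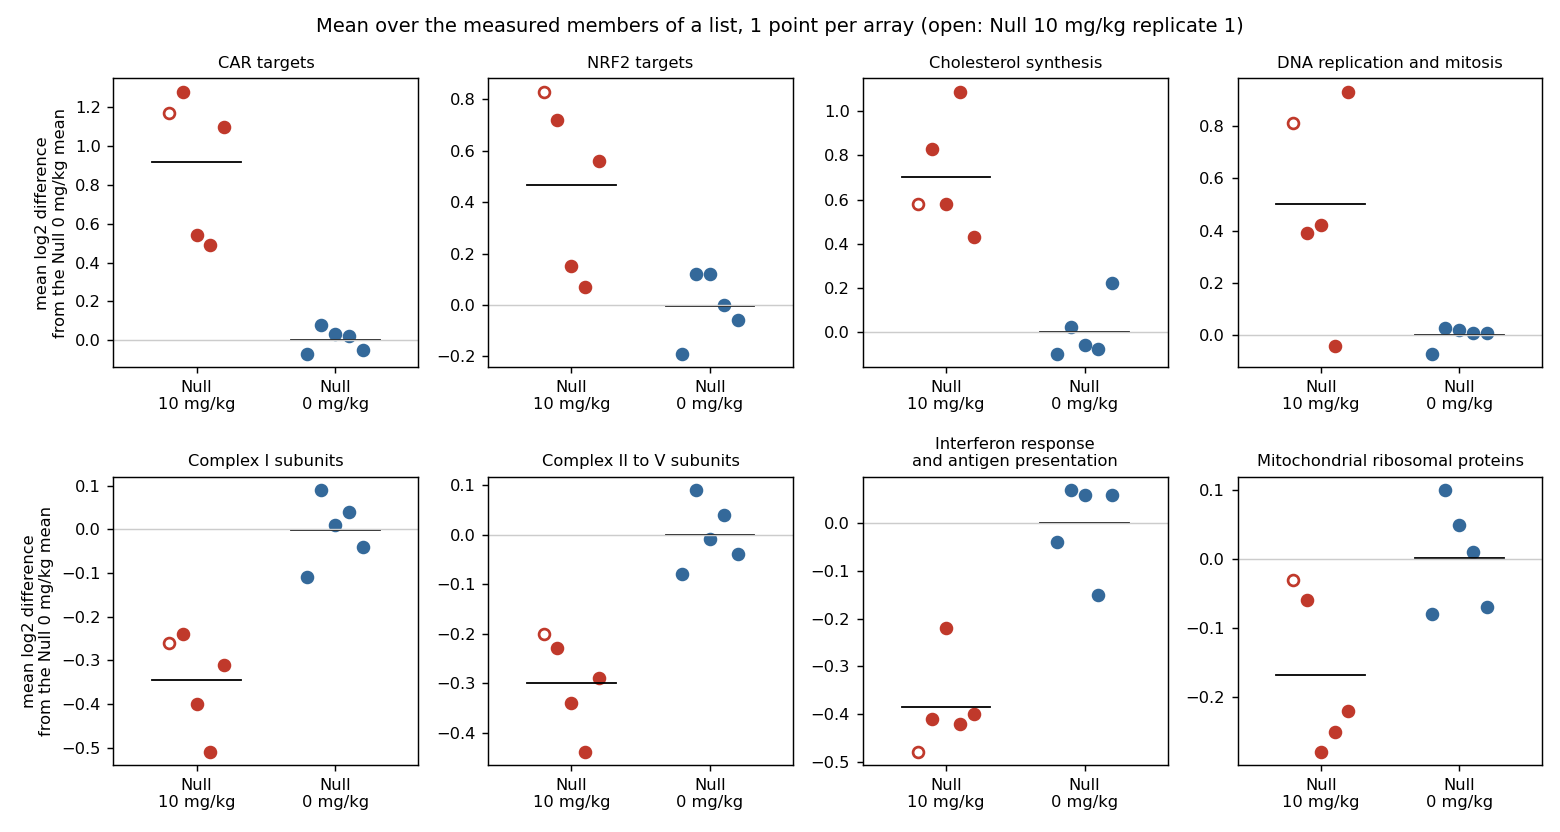
Mean over the measured members of 8 gene lists of the log2 difference from the Null 0 mg/kg mean (vertical axes), with 1 point per array and the group mean as a line, Null 10 mg/kg at the left and Null 0 mg/kg at the right. CAR and NRF2 targets were highest in treated replicates 1, 2, and 5, cholesterol synthesis genes in replicate 4 (1.09), and DNA replication genes ran from -0.04 to 0.93, while both lists of respiratory chain subunits lay below all controls in every treated array.

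Cholesterol synthesis rose along most of its length. Of 21 enzymes listed, 18 were measured, and 15 were higher and 0 lower, against 4.30% of all genes called higher, with a median change of 0.70 against 0.003. Without replicate 1 the count was 16 and the median 0.77. In pathway order, the early enzymes Hmgcs1, Mvk, Pmvk, and Mvd changed by 0.96, 0.61, 0.61, and 1.01, Fdps and Fdft1, which build farnesyl diphosphate and squalene, by 0.97 and 0.94, and the sterol-forming enzymes Sqle, Lss, and Cyp51 by 0.99, 1.09, and 1.21. Of the late enzymes, Tm7sf2, Msmo1, Nsdhl, Hsd17b7, Sc5d, and Dhcr7 changed by 0.48, 0.69, 0.58, 0.72, 0.39, and 0.77. Ebp, the sterol isomerase, was 0.13 (adjusted p = 0.4).

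Lss, which closes the sterol ring, read 10.55, 10.37, 10.09, 10.92, and 10.09 in Null 10 mg/kg mice, against 9.19, 9.24, 9.15, 9.24, and 9.77 in Null 0 mg/kg mice. All treated arrays were higher, with replicate 5 the highest of the controls (log2 change 1.09, SE 0.16, adjusted p = 0.0015). Cyp51, the sterol demethylase, read 7.78, 8.58, 7.95, 9.08, and 7.59 in Null 10 mg/kg mice, against 6.91, 7.08, 6.90, 6.86, and 7.19 in Null 0 mg/kg mice. Treated replicate 4 was its highest array and the groups stood apart (log2 change 1.21, SE 0.21, adjusted p = 0.0038). Fdps read 13.33, 13.20, 13.03, 13.18, and 12.94 in Null 10 mg/kg mice, against 12.21, 12.09, 11.92, 12.04, and 12.57 in Null 0 mg/kg mice, again without overlap, and its adjusted p was the smallest of the list (log2 change 0.97, SE 0.11, adjusted p = 0.00016). Hmgcs1, the enzyme that makes the precursor of mevalonate, had overlapping groups. It read 9.68, 10.46, 10.41, 11.48, and 9.83 in Null 10 mg/kg mice, against 9.04, 9.53, 9.37, 9.20, and 9.91 in Null 0 mg/kg mice, giving a log2 change of 0.96 (SE 0.26, adjusted p = 0.039) and, without replicate 1, 1.13 (adjusted p = 0.014). Idi1, the isomerase of the isoprenoid unit, was called only without replicate 1, at 0.84 (adjusted p = 0.0036) against 0.65 (adjusted p = 0.051) with it. Srebf2, which encodes SREBP2, was 0.20 (adjusted p = 0.28) and -0.01 by its other probe set, Srebf1, whose product drives fatty acid synthesis, was 0.51 (adjusted p = 0.02), and of the 17 SREBP2 targets and sterol sensors measured, Srebf1 and Tmem97 (0.42, adjusted p = 0.013), a sterol-binding membrane protein, were the 2 called.

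The promoters of these genes are shown because their transcripts moved together and their best known regulator, SREBP2, acts with the CCAAT-binding factor NF-Y. Sequences of the 250 bases before each start are from RefSeq (GRCm38.p6), 5′ to 3′ on the strand of the gene, and capitals mark the 5 letters CCAAT on either strand (as ATTGG on the other strand) and, in Hmgcs1, a sterol regulatory element of the form TCACNCCAC. A motif match describes the letters and is not a binding site.
Hmgcs1 (chr13:119690101-119690350, plus strand): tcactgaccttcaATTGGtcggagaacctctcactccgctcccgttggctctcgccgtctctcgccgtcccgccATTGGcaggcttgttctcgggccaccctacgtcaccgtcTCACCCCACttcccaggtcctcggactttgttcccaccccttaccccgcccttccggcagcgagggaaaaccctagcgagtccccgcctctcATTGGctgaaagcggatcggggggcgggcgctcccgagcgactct
Mvd (chr8:122443423-122443672, minus strand): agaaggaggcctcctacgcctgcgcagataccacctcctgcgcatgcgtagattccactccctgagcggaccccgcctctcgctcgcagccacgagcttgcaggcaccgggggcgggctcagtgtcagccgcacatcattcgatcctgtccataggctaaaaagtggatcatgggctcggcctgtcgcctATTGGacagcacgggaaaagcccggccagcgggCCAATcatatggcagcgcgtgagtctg
Lss (chr10:76531355-76531604, plus strand): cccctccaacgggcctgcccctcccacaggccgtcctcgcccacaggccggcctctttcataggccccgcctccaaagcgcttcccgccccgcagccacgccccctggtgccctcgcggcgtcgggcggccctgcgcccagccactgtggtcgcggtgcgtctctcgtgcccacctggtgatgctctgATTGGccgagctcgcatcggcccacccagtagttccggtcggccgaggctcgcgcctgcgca
Cyp51 (chr5:4104698-4104947, minus strand): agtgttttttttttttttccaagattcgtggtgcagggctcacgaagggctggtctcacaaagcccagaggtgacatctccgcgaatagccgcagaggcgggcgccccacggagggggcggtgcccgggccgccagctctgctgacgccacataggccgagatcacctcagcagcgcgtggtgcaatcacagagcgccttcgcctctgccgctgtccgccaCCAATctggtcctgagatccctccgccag
Nsdhl (chrX:72918271-72918520, plus strand): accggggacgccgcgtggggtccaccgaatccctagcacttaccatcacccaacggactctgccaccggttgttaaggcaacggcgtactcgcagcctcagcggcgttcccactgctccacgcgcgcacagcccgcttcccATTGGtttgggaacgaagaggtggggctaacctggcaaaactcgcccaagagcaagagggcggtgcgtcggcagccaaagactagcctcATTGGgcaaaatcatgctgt

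Of the 15 called enzymes of cholesterol synthesis, 12 had a promoter entry, and 11 of these (91.7%) held CCAAT. The share was 37.9% of all 27025 promoters of full length and 38.1% of the 9811 promoters of genes tested. Shares for every motif count matches anywhere in the full entry, so a match can lie outside the stretch printed above. TCACNCCAC was in 1 of the 12 (8.33%), against 1.22% of all and 1.11% of tested promoters. In all, 7 motifs were searched on both strands, in the called members of the list each is best known for. The antioxidant element core TGACNNNGC was in 2 of 8 called NRF2 targets with an entry (25.0%, against 12.5% of all and 14.8% of tested promoters). The E-box CACGTG was in 2 of 4 called clock genes (50.0%, against 7.24% of all and 10.3% of tested promoters), and the receptor half-site AGGTCA in 3 of 18 CAR targets (16.7%, against 16.0% and 13.1%). The ETS site CCGGAAG was in 2 of 19 complex I genes (10.5%) and 6 of 17 genes of the other complexes (35.3%), and in 9.12% of all and 17.1% of tested promoters, so that complex I lay below the share in tested genes. The interferon element core GAAANNGAA was in 2 of 8 interferon genes (25.0%, against 8.57% of all and 6.90% of tested promoters).

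Of the bile acid genes, Cyp7a1 rose and others fell. Cyp7a1 read 9.25, 10.25, 9.53, 8.29, and 9.81 in Null 10 mg/kg mice, against 7.93, 6.52, 6.70, 6.98, and 8.06 in Null 0 mg/kg mice. No arrays overlapped, although treated replicate 4 lay close to the highest controls (log2 change 2.19, SE 0.53, adjusted p = 0.021, 4.55-fold). The larger of the falls was in Cyp39a1, a hydroxylase of a side branch of bile acid synthesis, which read 6.75, 8.08, 8.08, 7.20, and 6.73 in Null 10 mg/kg mice, against 8.78, 9.22, 9.10, 8.86, and 9.71 in Null 0 mg/kg mice. Its groups stood apart in every array (log2 change -1.76, SE 0.27, adjusted p = 0.0016). Cyp7b1, which hydroxylates oxysterols in the alternative pathway, fell by 0.77 (adjusted p = 0.031) with overlapping groups. These were the 3 called of 22 measured. Of 17 anion and bile acid transporters, Abcc2 and Abcc3 were higher and 2 were lower. Slc22a7, an organic anion uptake transporter, read 7.98, 9.22, 8.92, 8.90, and 8.76 in Null 10 mg/kg mice, against 10.53, 9.98, 10.68, 10.20, and 10.54 in Null 0 mg/kg mice. Every treated array lay below every control (log2 change -1.63, SE 0.22, adjusted p = 0.00083, 3.09-fold). Slc51b, a subunit of the basolateral bile acid exporter, fell by 0.41 (adjusted p = 0.0095).

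Fatty acid genes rose in part. Of 31 genes of lipogenesis and triglyceride synthesis, 6 were higher and 1 lower (against 4.30% and 5.20% of all genes), with a median of 0.32. Thrsp, a lipogenic regulator induced by thyroid hormone, read 12.53, 11.88, 11.57, 11.85, and 12.31 in Null 10 mg/kg mice, against 10.23, 10.39, 10.62, 11.13, and 11.50 in Null 0 mg/kg mice. All treated arrays exceeded the controls (log2 change 1.25, SE 0.26, adjusted p = 0.0095). Acly, which supplies acetyl-CoA, rose by 0.77 (adjusted p = 0.0067), and the elongase Elovl1 by 0.50 (adjusted p = 0.0017). The desaturase Fads2 and the elongase Elovl6 were also higher (0.49 and 0.83), and the acyltransferase Agpat2 was lower (-0.51, adjusted p = 0.021). Scd1, the main desaturase, read 12.74, 12.08, 9.70, 9.43, and 12.37 in Null 10 mg/kg mice, against 10.65, 9.44, 9.07, 10.75, and 7.78 in Null 0 mg/kg mice, with both groups spread over several log2 units, and its difference of 1.72 was not called (adjusted p = 0.12). Fasn, fatty acid synthase, was 0.65 (adjusted p = 0.074).

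Genes that PPARα is known to control were called in part in Null mice, and many changed by less than in WT mice. Of 54 measured, 14 were higher and 3 lower (1 without replicate 1) at 10 mg/kg in Null liver, against 4.30% and 5.20% of all genes, with a median of 0.17, while the median over the same genes was 0.78 in WT liver (0.75 without WT 0 mg/kg replicates 4 and 5). The difference between genotypes was called for 429 of all genes (3.53%, with 81 more positive and 348 more negative in Null) and for 23 of these 54, each more negative in Null. Without WT 0 mg/kg replicates 4 and 5, the counts were 556 genes (143 and 413, with 308 called both ways) and 26 of the 54. Without Null 10 mg/kg replicate 1, 797 genes were called different (207 more positive and 590 more negative in Null). Slc22a5, the carnitine transporter, read 9.50, 9.59, 8.92, 9.33, and 9.44 in Null 10 mg/kg mice, against 8.01, 8.12, 8.10, 8.25, and 8.24 in Null 0 mg/kg mice, with no overlap (log2 change 1.21, SE 0.12, adjusted p = 8.6e-05), while its change in WT liver was 1.48 (1.66 without WT 0 mg/kg replicates 4 and 5). The difference in change between Null and WT was -0.27 (adjusted p = 0.51), or -0.45 (adjusted p = 0.17) without WT 0 mg/kg replicates 4 and 5, and was not called. Other called rises were Acadl, an acyl-CoA dehydrogenase (0.67, adjusted p = 0.0036), the carnitine carrier Slc25a20 (0.69, adjusted p = 0.0036), the thioesterase Acot4 (0.63, adjusted p = 0.001), and the transcription factor Creb3l3 (0.48, adjusted p = 0.0014). The Acot genes have close copies, so which member changed is uncertain.

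Other PPARα targets changed differently in the 2 genotypes. Vnn1, a pantetheinase, was -0.14 in Null liver (adjusted p = 0.87) and 4.75 in WT liver (3.39 without WT 0 mg/kg replicates 4 and 5), a difference of -4.89 (adjusted p = 0.00076), or -3.52 (adjusted p = 0.00049) without them. Cyp4a31, a fatty acid hydroxylase, rose in Null liver by 1.32 (adjusted p = 0.016), but control replicate 4, at 7.85, lay above all but replicate 5 of the treated arrays, and the difference from WT was -2.84 (adjusted p = 2.8e-05), or -2.99 (adjusted p = 8.3e-05) without WT 0 mg/kg replicates 4 and 5. The related Cyp4a14 read 10.53, 9.45, 7.40, 7.45, and 9.24 in Null 10 mg/kg mice, against 5.83, 9.19, 5.78, 12.20, and 5.33 in Null 0 mg/kg mice. Control replicate 4 was its highest array of all, and the difference of 1.15 was not called (adjusted p = 0.56). Of the 10 measured genes of the group of PPARα markers shown by the study, Acadl was higher and Hadhb lower. The Hadhb reading came from a probe set near the median of all values (5.71 ± 0.07 at 10 mg/kg and 6.07 ± 0.25 at 0 mg/kg, SD, n = 5 each), its call ended without replicate 1 (adjusted p = 0.061), and its other probe sets gave -0.09 and 0.13. Ehhadh, a peroxisomal oxidation enzyme, was 0.60 (adjusted p = 0.071). Mgll, monoglyceride lipase, fell by 0.42 in Null liver (adjusted p = 0.025) and was 1.09 in WT liver (0.97 without WT 0 mg/kg replicates 4 and 5), a difference of -1.51 (adjusted p = 3.8e-06), or -1.39 (adjusted p = 3.7e-05) without them. Its other probe sets ranged from -0.47 to 0.04. Of 16 lipid droplet genes, Mgll and Cideb (-0.28, adjusted p = 0.021), which helps load very low density lipoprotein, were the 2 called. Pltp, the phospholipid transfer protein, fell by 0.45 in Null (adjusted p = 0.0078) and was 1.30 in WT (1.21 without WT 0 mg/kg replicates 4 and 5), a difference of -1.75 (adjusted p = 5.5e-05), or -1.66 (adjusted p = 0.00065) without them. Ppargc1a, a coactivator of mitochondrial genes, was -0.43 (adjusted p = 0.092).

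Of 22 genes of mitochondrial fatty acid oxidation and ketone body synthesis, Slc22a5, Slc25a20, and Acadl were higher and Hadhb and Bdh1, a ketone body dehydrogenase (-0.33, adjusted p = 0.039, and 0.066 without replicate 1), were lower. Of 42 genes of peroxisomes, 5 were higher and 2 lower, against 4.30% and 5.20% of all genes, so the lower count was near its share. Crat, carnitine acetyltransferase, read 9.16, 9.00, 8.08, 8.33, and 8.43 in Null 10 mg/kg mice, against 7.57, 8.11, 7.49, 7.55, and 7.69 in Null 0 mg/kg mice. Control replicate 2 lay just above treated replicate 3, and all else stood apart (log2 change 0.91, SE 0.18, adjusted p = 0.0084). Nudt7, a peroxisomal hydrolase of coenzyme A, read 11.35, 11.86, 12.26, 12.41, and 12.39 in Null 10 mg/kg mice, against 12.87, 12.47, 13.15, 12.99, and 12.84 in Null 0 mg/kg mice. All treated arrays lay below all controls, replicate 1 lowest (log2 change -0.81, SE 0.18, adjusted p = 0.012). Nudt19, another hydrolase of this kind, rose by 0.49 (adjusted p = 0.0062), and Hao1, an oxidase of glycolate, fell by 0.37 (adjusted p = 0.0052). Fabp2, an intestinal-type fatty acid binding protein, fell by 1.03 (adjusted p = 0.028), was -0.86 (adjusted p = 0.052) without replicate 1, and differed in change from WT by -1.64 (adjusted p = 0.016), or -1.40 (adjusted p = 0.042) without WT 0 mg/kg replicates 4 and 5.

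**Figure D3:**
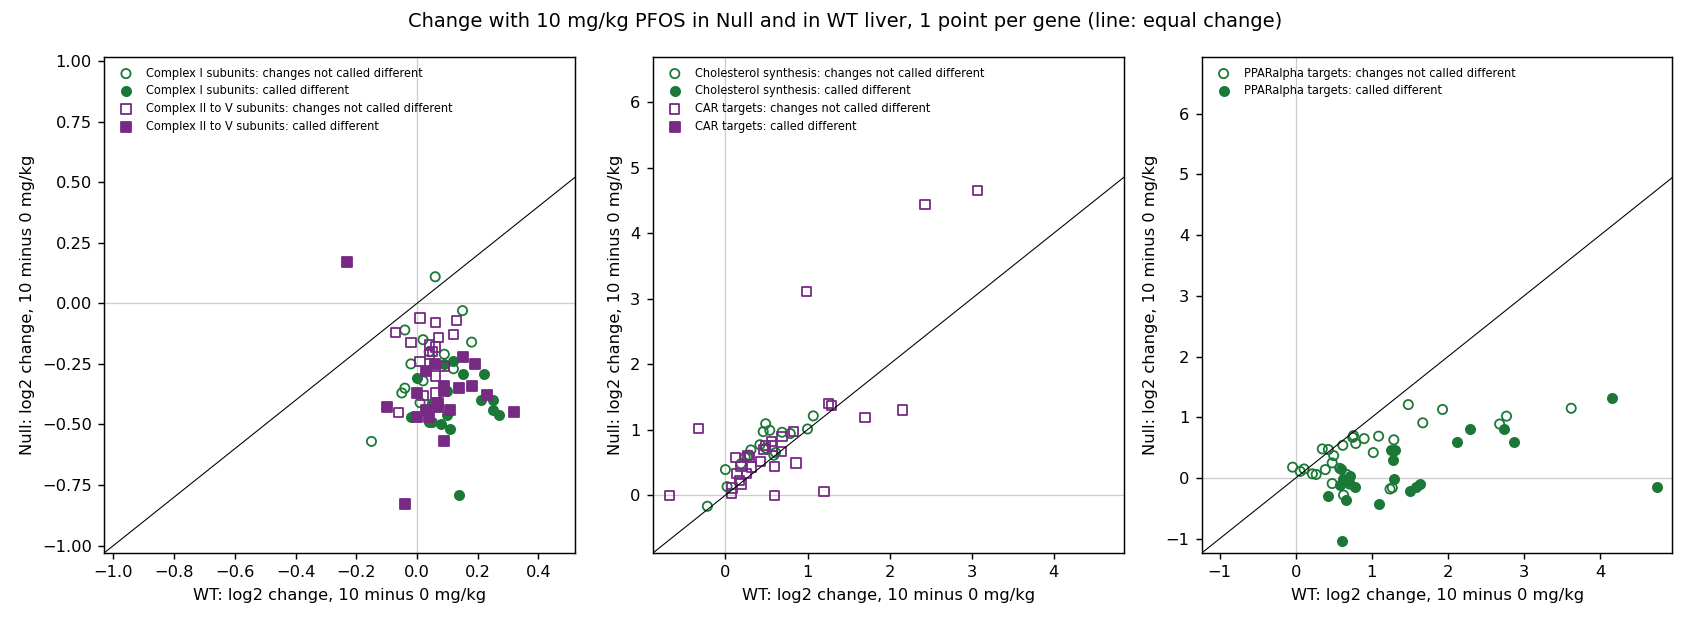
Log2 change at 10 minus 0 mg/kg in Null liver (vertical axes) against that in WT liver (horizontal axes), 1 point per gene, for respiratory chain subunits (left), cholesterol synthesis genes and CAR targets (middle), and PPARα targets (right). Filled symbols are genes whose change was called different between genotypes, as for 19 complex I subunits, 23 PPARα targets, 0 cholesterol synthesis genes, and 0 CAR targets (14, 26, 0, and 1 without WT 0 mg/kg replicates 4 and 5, which the plot includes), and the line marks equal change.

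Subunits of the respiratory chain, which carry electrons to oxygen and make ATP in mitochondria, fell together and by small amounts. Of 33 complex I subunits measured, 21 were lower and 0 higher, against 5.20% of all genes called lower, with a median of -0.36 and called changes from -0.79 to -0.25. The 5 treated arrays stood apart from the 5 controls in 22 of the 33, against 9.64% of all genes. Ndufa5, a subunit of the arm that takes electrons from NADH, read 9.49, 10.01, 9.78, 9.58, and 9.89 in Null 10 mg/kg mice, against 10.23, 10.70, 10.55, 10.61, and 10.61 in Null 0 mg/kg mice. No arrays overlapped (log2 change -0.79, SE 0.14, adjusted p = 0.0041). The paper's real-time PCR, run on a separate set of mice, did not reproduce this fall in treated Null mice. The paper relates that to the small size of such changes and the technical variation of PCR. Of its PCR as a whole, the paper states that results lay close to those of the arrays. It reports a rise of Cyp2b10, still a transcript of low copy number, in treated Null mice. By its account, Srebf2, Ppargc1a, and Nfe2l2 did not appear to rise. Ndufa7 read 10.12, 10.09, 9.95, 10.06, and 9.99 in Null 10 mg/kg mice, against 10.29, 10.56, 10.59, 10.58, and 10.50 in Null 0 mg/kg mice, also without overlap (log2 change -0.46, SE 0.07, adjusted p = 0.0023). Ndufa1, Ndufv3, and Ndufb6 fell by 0.57, 0.47, and 0.44 (adjusted p = 0.0028, 0.0033, and 0.0037). Without replicate 1, 26 of the 33 were lower, with a median of -0.36.

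Of 38 subunits of complexes II to V, 20 were lower and 0 higher, with a median of -0.32, and 24 were lower without replicate 1. Uqcrh of complex III read 11.47, 11.53, 11.44, 11.31, and 11.53 in Null 10 mg/kg mice, against 11.81, 12.00, 11.87, 11.96, and 11.86 in Null 0 mg/kg mice. The groups lay apart with little spread in either (log2 change -0.44, SE 0.06, adjusted p = 0.0012). The ATP synthase subunits Atp5j, Atp5h, and Atp5l fell by 0.43, 0.47, and 0.37 (adjusted p = 0.0014, 0.0027, and 0.0027), and Cox7a2 of complex IV by 0.45 (adjusted p = 0.0039). In WT liver the medians were 0.08 for complex I and 0.06 for the other complexes (0.05 and 0.02 without WT 0 mg/kg replicates 4 and 5). The difference between genotypes was called for 19 complex I subunits and 20 of the others, more negative in Null in each case, and for 1 further subunit of complexes II to V in the opposite direction. Without WT 0 mg/kg replicates 4 and 5, these counts were 14 and 10, with 1 opposite. At 3 mg/kg, 24 and 21 subunits were lower against the same controls, with medians of -0.39 and -0.29. Mitochondrial ribosomal proteins, which translate the mitochondrial genome, were lower in 12 of 74 (against 5.20% of all genes) and higher in 0, with a median of -0.18, and in 22 without replicate 1, among them Mrpl52 (-0.47, adjusted p = 0.0087) and Mrps33 (-0.34, adjusted p = 0.0093). Of 43 cytosolic ribosomal proteins, Rpl41, Rps29, and Rps24 were lower, by 0.34, 0.27, and 0.25, with 0 higher and a median of -0.11, a count close to the 5.20% of all genes called lower. Rps24 was not called without replicate 1 (adjusted p = 0.066), and its other probe sets ranged from -0.41 to 0.27.

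**Figure D4:**
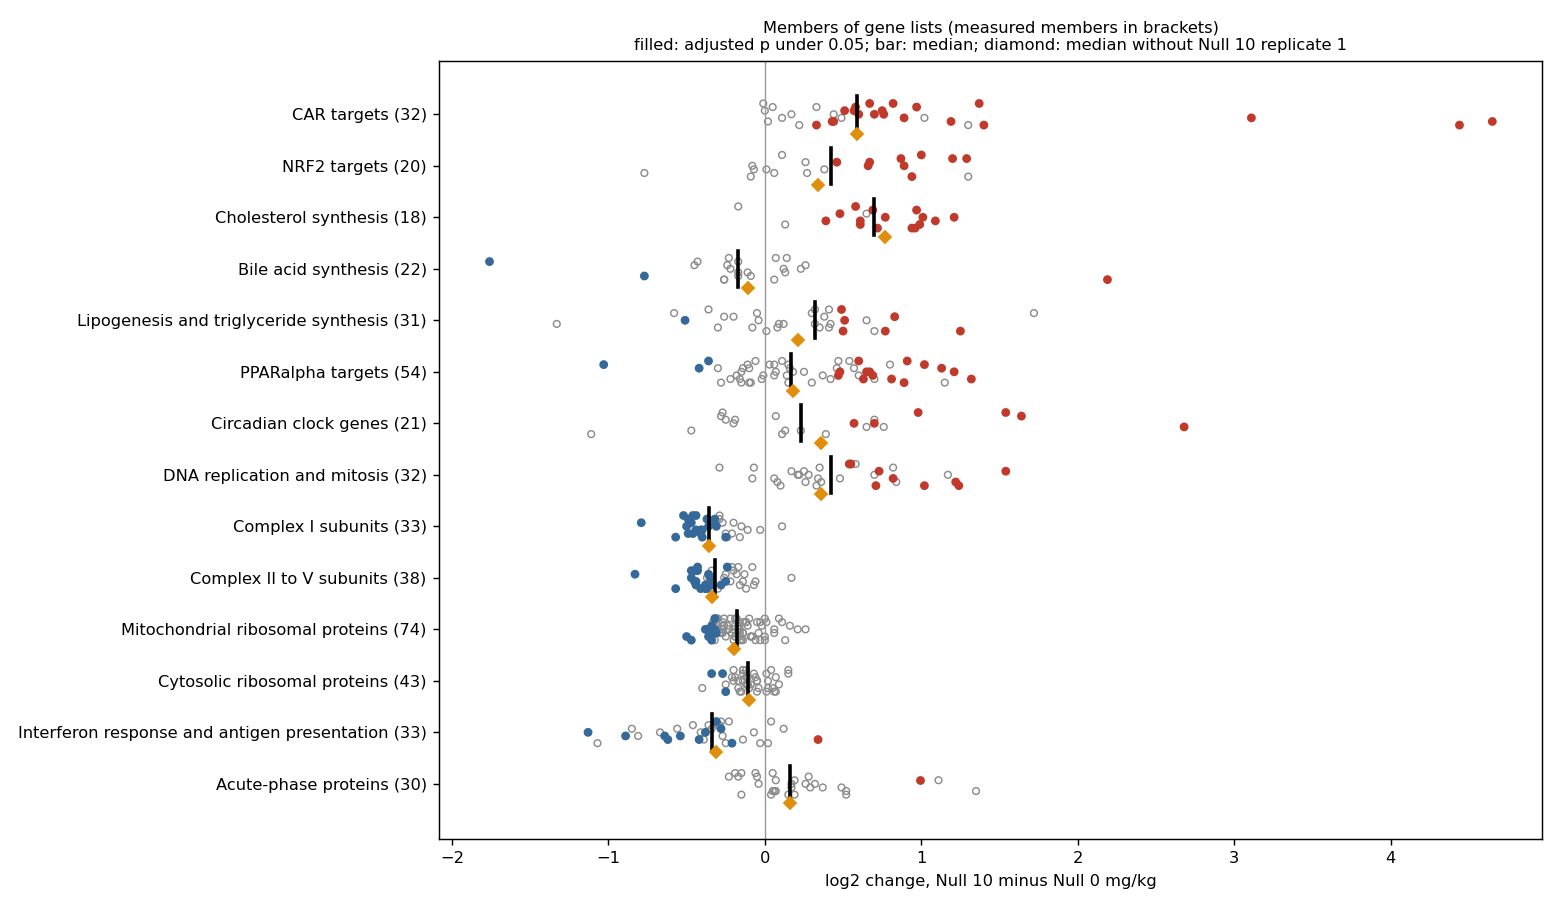
Log2 change at 10 minus 0 mg/kg in Null liver (horizontal axis) of each measured member of 14 gene lists (rows, with their number in brackets). Filled points passed an adjusted p under 0.05 (red higher, blue lower), bars are medians over the members, and diamonds are medians without Null 10 mg/kg replicate 1, which stay on the same side of 0 in all 14, and the medians run from 0.70 for cholesterol synthesis to -0.36 for complex I.

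Dio1, the liver deiodinase that activates thyroid hormone, had the largest called fall. It read 6.48, 8.43, 7.27, 6.87, and 5.78 in Null 10 mg/kg mice, against 8.78, 10.15, 10.33, 9.26, and 9.32 in Null 0 mg/kg mice. The highest treated array, replicate 2, lay below the lowest control (log2 change -2.61, SE 0.39, adjusted p = 0.0016, 6.09-fold). Gpd2, a mitochondrial dehydrogenase that thyroid hormone induces, read 7.75, 8.51, 8.43, 8.02, and 8.69 in Null 10 mg/kg mice, against 9.04, 9.44, 9.75, 9.17, and 9.33 in Null 0 mg/kg mice. Its arrays did not overlap (log2 change -1.07, SE 0.16, adjusted p = 0.0017), and its change in WT was 0.25 (-0.04 without WT 0 mg/kg replicates 4 and 5), a difference of -1.32 (adjusted p = 0.0024), or -1.03 (adjusted p = 0.01) without these 2 arrays. Of 13 genes of thyroid hormone action measured, Dio1, Gpd2, and the transcription factor Klf9 (-0.96, adjusted p = 0.0038) were lower and Thrsp was higher. The receptor gene Thra was -0.24 (adjusted p = 0.087).

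Other large falls were spread over several functions. The predicted gene 9030619P08Rik read 4.94, 5.99, 5.25, 5.15, and 5.05 in Null 10 mg/kg mice, against 7.40, 7.65, 8.12, 7.12, and 7.34 in Null 0 mg/kg mice, with all treated arrays far below the controls (log2 change -2.25, SE 0.25, adjusted p = 0.00016). Cela1, an elastase, read 8.70, 9.48, 9.74, 9.40, and 9.17 in Null 10 mg/kg mice, against 11.22, 11.46, 11.64, 11.30, and 11.32 in Null 0 mg/kg mice. The groups stood apart in every array (log2 change -2.09, SE 0.17, adjusted p = 2.1e-05, 4.26-fold). Of 14 pancreatic acinar transcripts listed, 3 were measured and limma called 0, with 0 at an unadjusted p under 0.05 (0 also by the methods' t-test), and their summed level was 176 to 223 at 10 mg/kg and 182 to 205 at 0 mg/kg. Hsd3b2, a steroid dehydrogenase, read 9.23, 9.78, 10.50, 10.43, and 9.97 in Null 10 mg/kg mice, against 11.52, 11.10, 11.51, 11.36, and 11.46 in Null 0 mg/kg mice. Again no arrays overlapped (log2 change -1.41, SE 0.19, adjusted p = 0.00089), and members of this family have close copies. The serpin gene Serpina12, which encodes vaspin, fell by 1.31 (adjusted p = 0.0076), Tsc22d1, a transcriptional regulator, fell by 1.35 (adjusted p = 0.0012), and Tlcd2, a membrane protein gene, fell by 1.23 (adjusted p = 0.0069). For these 3 genes replicate 1 was the lowest treated array, and without it the changes, still called, were -1.06, -1.15, and -0.94. Cyp26b1, which degrades retinoic acid, read 6.94, 6.93, 6.22, 6.50, and 6.91 in Null 10 mg/kg mice, against 7.18, 8.46, 7.83, 7.71, and 9.11 in Null 0 mg/kg mice. The groups stood apart, with the controls spread widely (log2 change -1.35, SE 0.27, adjusted p = 0.0085). Snord104, a small nucleolar RNA whose probe set may also read its host transcript, fell by 1.20 (adjusted p = 0.00016). Rfx4, a transcription factor gene with a low signal, read 4.41, 4.93, 5.08, 4.34, and 4.63 in Null 10 mg/kg mice, against 6.54, 6.42, 5.95, 5.77, and 5.50 in Null 0 mg/kg mice. All treated arrays were below all controls (log2 change -1.36, SE 0.21, adjusted p = 0.0021), but its other probe set gave 0.05, and the change differed from that in WT by -2.13 (adjusted p = 0.0077), or -1.44 (adjusted p = 0.015) without WT 0 mg/kg replicates 4 and 5.

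Interferon and antigen presentation genes were lower in part. Of 33 measured, 10 fell and 1 rose (against 5.20% of all genes called lower), with a median of -0.34, and without replicate 1 these were 9 and 0 with a median of -0.31. Ifi27, an interferon-induced mitochondrial protein, read 9.50, 9.87, 10.04, 9.68, and 9.86 in Null 10 mg/kg mice, against 10.64, 11.11, 10.93, 10.72, and 11.18 in Null 0 mg/kg mice. The groups stood well apart (log2 change -1.13, SE 0.12, adjusted p = 0.00016, 2.18-fold). Irf7, a transcription factor of the interferon response, read 7.61, 7.48, 7.78, 7.31, and 7.51 in Null 10 mg/kg mice, against 8.24, 8.37, 8.24, 8.06, and 7.98 in Null 0 mg/kg mice, also without overlap (log2 change -0.64, SE 0.14, adjusted p = 0.012). The interferon-inducible proteasome subunits Psmb8, Psmb9, and Psmb10 fell by 0.54, 0.38, and 0.28, the guanylate-binding proteins Gbp6 and Gbp3 by 0.89 and 0.62, and the class I genes B2m, H2-K1, and H2-D1 by 0.31, 0.21, and 0.42. Tapbp, which loads peptides on class I molecules, was the 1 called higher (0.34, adjusted p = 0.046), and neither it nor H2-K1 was called without replicate 1 (adjusted p = 0.061 and 0.067). Of 43 proteasome subunits measured, 3 were higher and 4 lower, against 4.30% and 5.20% of all genes. Psmd2, Psmd5, and Psmd11 were higher (0.37, 0.43, and 0.40) and, beside the 3 inducible subunits, Psmd13 was lower (-0.51). However, the other probe sets of Psmd13 gave 0.06 to 0.30 and those of Psmd11 -0.04 to 0.20.

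Markers of Kupffer cells, the resident macrophages of liver, moved in the same direction. Of 18 measured, 4 were lower and 0 higher (against 5.20% of all genes called lower), with a median of -0.34. Fcna, a lectin of macrophages, read 9.61, 9.88, 9.94, 9.89, and 9.74 in Null 10 mg/kg mice, against 9.95, 10.28, 10.45, 10.29, and 10.68 in Null 0 mg/kg mice, without overlap (log2 change -0.52, SE 0.11, adjusted p = 0.013). The complement genes C1qc and C1qa fell by 0.51 and 0.42 and Cd5l, a macrophage survival factor, by 0.48. For C1qc and Cd5l the groups overlapped. The summed level of the 18 ranged from 9845 to 14086 at 10 mg/kg and from 12163 to 15535 at 0 mg/kg, so the groups overlapped. The part of these cells in the interferon result was not tested, and in a bulk sample fewer cells of a type and less RNA per cell cannot be told apart. Endothelial markers split, with Lyve1 (1.39, adjusted p = 0.018) and Pecam1 (0.26, adjusted p = 0.049, and 0.078 without replicate 1) higher and Fcgr2b and Aqp1 lower (-0.40 and -0.33) among 17, and their summed level ranged from 6921 to 8253 at 10 mg/kg and from 7768 to 8725 at 0 mg/kg. Lyve1 read 6.75, 6.68, 7.72, 5.20, and 6.15 in Null 10 mg/kg mice, against 5.02, 5.47, 5.14, 5.00, and 4.92 in Null 0 mg/kg mice. Replicate 3 was its highest array and replicate 4 lay within the controls. Of 18 stellate cell markers, Rgs5 was lower (-0.61, adjusted p = 0.026), and their summed level ranged from 8933 to 14389 at 10 mg/kg and from 11237 to 12372 at 0 mg/kg. Markers of bile duct cells, lymphocytes, red blood cells, and adipocytes held 0 genes called by limma of 6, 9, 2, and 4 measured, with 1 red blood cell gene at an unadjusted p under 0.05 and 0 called by the methods' t-test.

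S100a8, a calcium-binding protein best known from neutrophils, was among the largest rises and among the least even. It read 9.94, 10.38, 6.09, 6.03, and 9.87 in Null 10 mg/kg mice, against 5.15, 4.99, 6.16, 5.27, and 5.21 in Null 0 mg/kg mice. Replicates 1, 2, and 5 stood near 10, while replicates 3 and 4 lay within the control range (log2 change 3.11, SE 0.83, adjusted p = 0.033). The call ended without replicate 1, at 2.74 (adjusted p = 0.063). S100a9, its usual partner, was -0.09 (adjusted p = 0.88), and S100a8 was the 1 called of 6 neutrophil markers, whose summed level ranged from 307 to 1585 at 10 mg/kg and from 261 to 355 at 0 mg/kg. Acute-phase proteins held 1 call and varied widely between treated mice. Of 30 measured, Il1rn, an interleukin antagonist, was higher (0.99, adjusted p = 0.01) and 0 were lower. Their mean log2 difference from the control mean was -0.08, 0.29, 0.34, 0.93, and -0.37 in Null 10 mg/kg mice. In Null 0 mg/kg mice it was 0.21, -0.06, -0.13, -0.22, and 0.19. Of 41 complement and coagulation genes, 3 were lower and 0 higher, against 5.20% and 4.30% of all genes. They were the mannose-binding lectins Mbl1 and Mbl2 and the complement subunit C8g (-0.55, -0.35, and -0.22).

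Several clock-controlled genes rose, with controls that spread widely. Of 21 measured, 6 were higher and 0 lower (against 4.30% of all genes called higher), with a median of 0.23, and 5 were higher without replicate 1. Noct, a deadenylase with a daily rhythm, read 9.33, 7.13, 9.60, 9.83, and 9.16 in Null 10 mg/kg mice, against 6.66, 7.20, 6.14, 6.12, and 5.54 in Null 0 mg/kg mice. Treated replicate 2 lay just below the highest control, and the other 4 were far above (log2 change 2.68, SE 0.43, adjusted p = 0.0023, 6.41-fold). Usp2, a ubiquitin protease under clock control, read 10.81, 9.35, 9.45, 9.93, and 9.35 in Null 10 mg/kg mice, against 8.16, 7.21, 7.39, 8.68, and 9.23 in Null 0 mg/kg mice. No arrays overlapped, but control replicate 5 nearly reached the lowest treated arrays (log2 change 1.64, SE 0.41, adjusted p = 0.023). Wee1, a kinase that delays mitosis and is a clock target, read 8.15, 6.94, 7.12, 7.03, and 7.57 in Null 10 mg/kg mice, against 5.04, 5.35, 5.56, 6.36, and 6.80 in Null 0 mg/kg mice, with a similar narrow gap (log2 change 1.54, SE 0.34, adjusted p = 0.013). Per2, Tef, and Ciart rose by 0.57, 0.70, and 0.98, and neither Tef nor Ciart was called without replicate 1 (adjusted p = 0.068 and 0.076). The core gene Arntl, which encodes BMAL1, read 5.51, 6.91, 5.98, 6.19, and 6.36 in Null 10 mg/kg mice, against 7.91, 8.32, 7.49, 6.84, and 5.94 in Null 0 mg/kg mice, with overlap (-1.11, adjusted p = 0.14), and the output factor Dbp was 0.76 (adjusted p = 0.27). 

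Genes of DNA replication and mitosis rose in some mice. Of 32 measured, 9 were higher and 0 lower (against 4.30% of all genes called higher), with a median of 0.42, and without replicate 1, 4 were higher (against 4.38%), with a median of 0.36. Birc5, an inhibitor of apoptosis needed for cell division, read 6.01, 5.51, 5.64, 5.11, and 6.36 in Null 10 mg/kg mice, against 4.91, 4.70, 3.96, 4.74, and 4.25 in Null 0 mg/kg mice. Its groups stood apart (log2 change 1.22, SE 0.21, adjusted p = 0.0036). Ccnb2, a mitotic cyclin, rose by 1.24 (adjusted p = 0.012), and Mcm4, a helicase subunit of replication, by 0.82 (adjusted p = 0.013). Mcm6, another helicase subunit, read 7.74, 6.43, 6.27, 4.92, and 7.76 in Null 10 mg/kg mice, against 4.56, 5.14, 5.41, 5.20, and 5.12 in Null 0 mg/kg mice. Replicates 1 and 5 were highest and replicate 4 lay within the controls, and the call ended without replicate 1 (log2 change 1.54, SE 0.43, adjusted p = 0.043 with it, and 1.26, adjusted p = 0.079, without it). Mcm2, Mcm10, Aurka, and Cdc20 lost their calls in the same way, and the other probe sets of Cdc20 gave -0.02 and 0.75. Pcna, a replication clamp, was 0.08 (adjusted p = 0.68).

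Several of the largest rises fell in none of these lists. Nebl, which encodes the actin-binding protein nebulette, read 8.79, 9.10, 7.62, 7.45, and 8.94 in Null 10 mg/kg mice, against 5.74, 6.63, 6.49, 6.27, and 6.42 in Null 0 mg/kg mice. All treated arrays were above the controls, replicates 3 and 4 least (log2 change 2.07, SE 0.30, adjusted p = 0.0011). Nrg4, a growth factor gene, read 8.96, 6.78, 6.77, 7.03, and 6.94 in Null 10 mg/kg mice, against 6.05, 5.39, 5.46, 5.85, and 5.96 in Null 0 mg/kg mice. Replicate 1 stood well above the other treated arrays, which themselves exceeded all controls, so that the log2 change of 1.55 (SE 0.33, adjusted p = 0.01) was 1.14 (adjusted p = 0.0011) without it. Kcnk5, a potassium channel, rose by 1.46 (adjusted p = 0.0077) and the predicted gene 9130409I23Rik by 1.61 (adjusted p = 0.0062), both with groups apart. Rdh11, a retinol dehydrogenase, rose by 1.18 (adjusted p = 0.00083). In folate metabolism, 4 of 15 genes were higher and 2 lower, against 4.30% and 5.20% of all genes. Aldh1l1, formyltetrahydrofolate dehydrogenase, rose by 0.75 (adjusted p = 0.0042), and its change differed from that in WT by 0.94 (adjusted p = 0.019). Without WT 0 mg/kg replicates 4 and 5 the difference was 0.65 (adjusted p = 0.054), and its call ended. Shmt1, serine hydroxymethyltransferase, fell by 0.65 (adjusted p = 0.0012). Without replicate 1, 2 genes of this list were higher. Among 18 genes of hepatocytes around the central vein, glutamine synthetase Glul, the vitamin C enzyme Gulo, the R-spondin receptor Lgr5, and the secreted protein Lect2 were lower (-0.64, -0.60, -0.52, and -0.43) and the aldehyde dehydrogenase Aldh3a2, also a PPARα target, was higher (1.13), with Lect2 not called without replicate 1 (adjusted p = 0.075). Of 23 genes of lipoproteins, 4 were lower and 1 higher, against 5.20% and 4.30% of all genes. Apom, Pltp, Apoc4, and Scarb1 were lower (-0.48, -0.45, -0.30, and -0.37), with Scarb1 not called without replicate 1 (adjusted p = 0.066). Mttp, which assembles very low density lipoprotein, was higher (0.40).

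Genes whose liver level differs between male and female mice were called in small numbers, all mice here being male. Of 20 male-biased genes, 5 were lower and 1 higher, against 5.20% and 4.30% of all genes. Mup3, a major urinary protein whose probe set may read close copies, fell by 0.63 (adjusted p = 0.025), the complement regulator Susd4 by 0.57 (adjusted p = 0.018), and Cyp4a12a, a fatty acid hydroxylase, rose by 0.57 (adjusted p = 0.019). Cyp7b1, Nudt7, and C8g, described above with their pathways, are the other 3 male-biased genes that fell. Of 18 female-biased genes, 4 were higher and 1, Cyp39a1, was lower, against 4.30% and 5.20% of all genes. Fmo4, a flavin monooxygenase, rose by 0.85 (adjusted p = 0.011), the coregulator Trim24 by 0.75 (adjusted p = 0.0062), and the magnesium transporter Nipal1 by 0.77 (adjusted p = 0.041, and 0.076 without replicate 1). Of 17 genes of the growth hormone axis, which sets these sex differences, Stat5b, its transcription factor, and Igfbp4, a binding protein of insulin-like growth factor, were lower (-0.51 and -0.28).

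Lists of other liver functions held few calls. Of 28 genes of fasting and gluconeogenesis, Pfkfb3, a regulator of glycolysis, was higher (0.76, adjusted p = 0.043, and 0.067 without replicate 1). Of 48 genes of amino acid breakdown and the urea cycle, the mitochondrial aspartate carrier Slc25a13 and asparagine synthetase Asns were higher (0.30 and 0.77, with Asns at an adjusted p of 0.087 without replicate 1) and Glul was lower. Of 31 genes of the unfolded protein and integrated stress responses, Asns and the leucine sensor Sesn2 (0.32) were higher, and the transcription factor Atf5 (-0.64, adjusted p = 0.033, and 0.051 without replicate 1) and Chac1, which degrades glutathione (-0.80), were lower. Of 17 p53 targets and growth control genes, Sesn2 and Gadd45b were higher and 0 lower, with 4 higher without replicate 1. Hfe, the hemochromatosis protein that senses iron, rose by 0.98 (adjusted p = 0.009), the 1 called of 18 genes of iron and copper handling, with 2 higher without replicate 1. Pigr, which carries immunoglobulin A into bile, fell by 0.68 (adjusted p = 0.011), the 1 called of 14 periportal genes. Of 16 heat shock protein genes, limma called 0, with 5 at an unadjusted p under 0.05, and 1 by the methods' t-test after Benjamini-Hochberg adjustment.

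**Figure D5:**
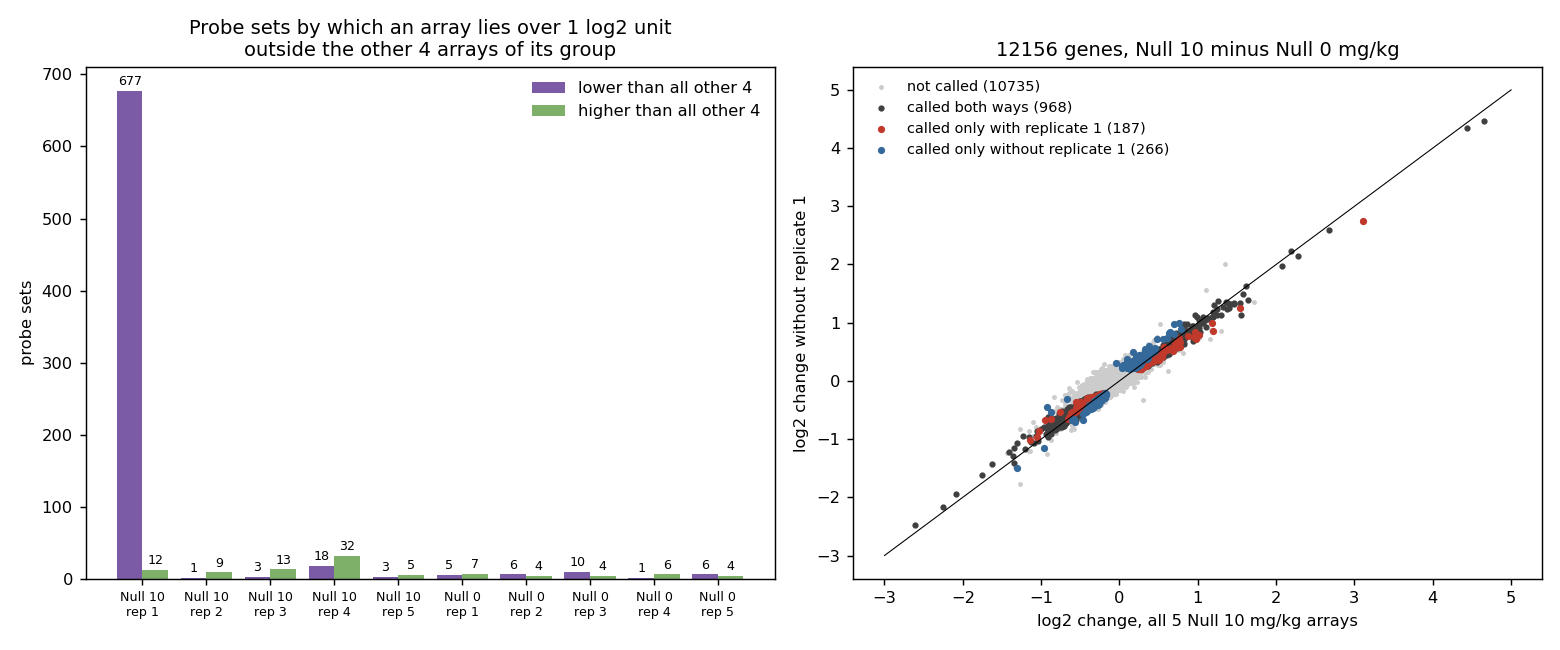
Left, number of probe sets (vertical axis) by which each array (horizontal axis) lies more than 1 log2 unit below or above all other 4 arrays of its group, 677 below in Null 10 mg/kg replicate 1 and at most 18 in any other array. Right, log2 change at 10 minus 0 mg/kg without replicate 1 (vertical axis) against that with all arrays (horizontal axis) for 12156 genes, colored by whether a gene was called both ways (968), only with it (187), or only without it (266), with equal change as a line.

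How far the comparison rests on Null 10 mg/kg replicate 1 can be read from single genes and from the lists. Leaving it out, 968 of the 1155 calls (83.8%) held, 187 were lost (110 higher and 77 lower), and 266 were gained (120 higher and 146 lower). Of the called genes, 0 changed sign, the median move of a called change was 0.04, and the largest was 0.42 on the log2 scale. Across genes, which are not independent, the changes with and without it had a correlation of 0.954. Both fits share every other array, and the called genes were picked with replicate 1 included. Steady signs, small moves, and a high correlation follow largely from that and do not measure how far the results rest on it. Leaving out any other array lost 108 to 502 calls, the most without Null 0 mg/kg replicate 4, and the count of called genes was over 1.5 times smaller without Null 0 mg/kg replicates 2, 3, or 4 (703, 725, and 658 genes). The probe sets that were low in it read 227 of the genes analyzed, and 4 of these were called with all arrays, all lower, while 13 were called without it, 6 lower and 7 higher.

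The genes with the largest changes called only with this array were S100a8, Mcm6, Cbr3, the glycogen-targeting subunit Ppp1r3g, and Depp1, a gene of the fasting response. Ppp1r3g read 7.11, 6.21, 6.70, 4.79, and 7.01 in Null 10 mg/kg mice, against 5.32, 4.89, 5.13, 5.36, and 5.20 in Null 0 mg/kg mice, with replicate 4 below all controls (1.18, adjusted p = 0.035, and 1.00, adjusted p = 0.067, without replicate 1). Depp1 was -1.14 (adjusted p = 0.03) and -1.01 (adjusted p = 0.057) without it. The largest changes called only without it were in Cyp17a1, Foxq1, Rarres1, Acsl3, and Tfrc. Cyp17a1, a steroid hydroxylase, read 8.98, 7.81, 8.34, 9.19, and 6.87 in Null 10 mg/kg mice, against 8.66, 10.11, 9.31, 9.28, and 10.35 in Null 0 mg/kg mice. Replicates 1 and 4 lay among the controls, and the change was -1.31 (adjusted p = 0.056) with replicate 1 and -1.49 (adjusted p = 0.035) without it. Acsl3, an acyl-CoA synthetase, read 6.37, 7.88, 7.65, 8.10, and 7.25 in Null 10 mg/kg mice, against 6.48, 6.71, 6.95, 6.78, and 6.81 in Null 0 mg/kg mice. Replicate 1 lay below all controls and the other treated arrays above them, which gave 0.70 (adjusted p = 0.1) with replicate 1 and 0.97 (adjusted p = 0.0045) without it. The forkhead gene Foxq1, the retinoid-responsive gene Rarres1, and the transferrin receptor Tfrc were -1.16 (adjusted p = 0.044), 1.00 (adjusted p = 0.03), and 0.89 (adjusted p = 0.044) without it. By list, the count of called members moved by over 1.5 times without replicate 1 for replication and mitosis (4 higher, against 9 with it) and mitochondrial ribosomal proteins (22 lower, against 12 with it). Smaller counts moved so for folate metabolism (2 higher, against 4), p53 targets (4 higher, against 2), and PPARα targets (1 lower, against 3). In further lists, counts of 2 or fewer calls with all arrays moved by as much. Among them were mitochondrial fatty acid oxidation (0 lower, against 2), lipoproteins (2 higher, against 1), and iron and copper handling (2 higher, against 1). CAR targets, cholesterol synthesis, and both lists of respiratory chain subunits kept counts within 1.5 times.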

How the data were processed

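Liver RNA of each mouse was measured on 1 Affymetrix GeneChip 430_2 array. The deposited log2 values are those that the authors made by robust multi-array averaging (RMA), which subtracts background, makes the distributions of all arrays equal, and summarizes each probe set, so that a shift of most genes together cannot be seen, and small changes of weak probe sets are compressed.

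Of 45101 probe sets, 64 controls were left out and 24069 were kept, those that exceeded 5.65, the median over the table, in 5 or more of 30 arrays. Genes were named from the platform annotation, with symbols updated through Entrez numbers for 34754 probe sets. Of the probe sets, 34958 have 1 gene, 932 several, and 9211 none, and only those with 1 gene were named. For each of the 12156 genes, the probe set of smallest p in a joint test of both doses in Null mice was read. Of the called genes named that have other probe sets, 83 of 90 had all of them in 1 direction. limma 3.58.1 in R 4.3.3 was fitted to the 15 Null arrays with 1 mean per group. The difference between genotypes was its interaction term in a fit of all 30 arrays, read at the same probe sets. These were chosen on Null mice alone, which can favor larger changes in Null, and the size of that effect was not tested. Benjamini-Hochberg adjustment ran over all kept probe sets, with a call below 0.05. The fit was tested on simulated data. The mice are separate animals, and the count of arrays is n. Alternatives changed the filter, probe set, normalization, spread, array weights, arrays in the fit, block, and test, the last being the t-test of the study's methods with a limit of 0.0025.

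The members and lists were chosen with earlier results of these data known. The rule for naming took the 12 largest called rises and 12 largest called falls without overlap, and genes central to the study. It also took up to 5 members per list ranked by p, all calls of lists with 5 or fewer, and the 5 genes each way that most depend on Null 10 mg/kg replicate 1. Of the 263 genes that the rule gave, 164 are named here, and the others were left out. A further 40 genes were named after their values were seen, namely Agpat2, Arntl, Aurka, B2m, Ciart, Cyp3a11, Cyp4a31, Cyp51, Dbp, Ebp, Elovl6, Fabp2, Fasn, Fdft1, Gstk1, Gstm2, Gstm3, Gstm4, H2-D1, H2-K1, Hmgcs1, Hsd17b7, Idi1, Mcm10, Mcm2, Msmo1, Mvd, Mvk, Nr1i3, Pcna, Pgd, Psmb10, Psmd11, Sc5d, Scd1, Sqle, Sult5a1, Tapbp, Tm7sf2, and Vnn1. Gapdh was not named by the annotation and was not analyzed here as a gene. Plots used matplotlib 3.10.9 (Python 3.11.15). Promoters were taken from RefSeq (GRCm38.p6).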

Additional observations from a re-analysis of the deposited data

Results flagged for a closer look

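In Null 10 mg/kg replicate 1, 677 probe sets lay more than 1 log2 unit below all other arrays of the group, a count far from those of the other 4 treated arrays (1 to 18). The array also had the lowest 3′ minus 5′ signals for actin (0.36) and Gapdh (0.07) and an array weight of 0.20, against 0.57 to 2.30 for the other Null arrays. Their part in the results was not tested.

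For the genes named above, 408 groups of 5 arrays were examined, and in 29 the highest or lowest array stood far from the other 4 by Dixon's limit, which chance passes in about 1 group of 20. The number after each gene is the log2 value of that array. Null 10 mg/kg replicate 1 was high for Nrg4 (8.96) and Nudt19 (11.62) and low for Gbp6 (4.77), Ndufa1 (11.79), and Tiparp (6.51). Replicate 2 of that group was high for S100a9 (5.76) and low for Noct (7.13), replicate 3 was high for Cd5l (10.23) and low for Slc51b (5.37), and replicate 4 was low for Chac1 (6.09). Null 0 mg/kg replicate 1 was high for Aldh1l1 (7.93) and low for Cox7a2 (11.93), Fasn (9.31), Gbp3 (5.72), Glul (11.46), Mcm4 (5.94), Mrpl52 (10.15), Pcna (10.19), and Rps29 (13.12). In the same group, replicate 2 was high for Cyb5b (10.89) and Cyp3a13 (11.62) and low for Apom (12.18), and replicate 3 was high for S100a8 (6.16). Null 0 mg/kg replicate 4 was high for Cyp4a31 (7.85) and Vnn1 (6.31) and low for Alas1 (9.31), and replicate 5 was high for Fdft1 (10.41), Lss (9.77), and Psmb9 (8.82).

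The change at 10 mg/kg differed between genotypes, by limma's interaction term at an adjusted p under 0.05, for 22 of the genes named, and for 16 of these also without WT 0 mg/kg replicates 4 and 5. The difference, Null minus WT on the log2 scale with all arrays and then without those 2 WT arrays, was more negative in Null for the mitochondrial genes Atp5h (-0.46 and -0.39), Atp5j (-0.33 and -0.27), Atp5l (-0.38 and -0.33), Mrpl52 (-0.72 and -0.79), Mrps33 (-0.44 and -0.46), Ndufa5 (-0.93 and -0.88), Ndufa7 (-0.56 and -0.50), Ndufb6 (-0.47 and -0.41), Ndufv3 (-0.46 and -0.37), and Uqcrh (-0.47 and -0.43). It was likewise more negative for the lipid genes Cyp4a31 (-2.84 and -2.99), Ehhadh (-1.51 and -1.88), Fabp2 (-1.64 and -1.40), Hadhb (-1.02 and -0.77), Mgll (-1.51 and -1.39), Pltp (-1.75 and -1.66), and Vnn1 (-4.89 and -3.52). The others were Aldh1l1 (0.94 and 0.65), Gpd2 (-1.32 and -1.03), Psmd13 (-0.58 and -0.39), Rfx4 (-2.13 and -1.44), and Rps24 (-0.41 and -0.48). Without the 2 WT arrays, the difference was no longer called for Aldh1l1, Atp5h, Atp5j, Atp5l, Ndufv3, and Psmd13.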

How the results depend on the processing

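The fit with the replicate number as a block called 1052 genes (451 higher and 601 lower), against 1155 without it. Same-numbered arrays of the groups showed no common tendency to deviate together (correlations of 0.02, 0.32, -0.23, -0.13, and 0.13, with 1 of 5 arrays closest to its own number). The reported fit therefore used no pairing. So few arrays cannot show whether equal numbers share anything, and the labels do not say. Other settings over all arrays called 896 to 1523 genes, with these exceptions. The 10 compared arrays alone called 761 (323 higher and 438 lower), and 1051 (448 higher and 603 lower) with Null 10 mg/kg replicate 1 left out as well. A limit of 1.5-fold left 309 (179 higher and 130 lower). Leaving out 1 array at a time, with probe sets chosen again, called 656 to 1340 genes (281 to 626 higher and 366 to 714 lower). The cause was not tested.

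The difference between genotypes was called for 235 to 797 genes when 1 Null array was left out with probe sets kept (38 to 207 more positive and 195 to 590 more negative in Null), and for 143 more positive without WT 0 mg/kg replicates 4 and 5. Setting aside Null 10 mg/kg replicate 1 with the probe sets kept, an alternative chosen after seeing the data, 1 PPARα target was lower against 3, 22 mitochondrial ribosomal proteins were lower against 12, and 2 folate genes (against 4), 4 replication genes (against 9), and 4 p53 targets (against 2) were higher.

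For the 204 genes named, 3819 of 4486 values kept their direction and their side of the threshold, 601 kept their direction and missed it, 49 passed it, and 17 turned. Of 179 called genes among them, 97 passed under every alternative run, and 132 passed the methods' t-test at an unadjusted p of 0.0025. The highest-mean probe set turned Cdc20 (-0.02), Hadhb (0.13), Psmd13 (0.18), Rfx4 (0.05), and Srebf2 (-0.01). Rps24 was 0.27 without a filter, 0.33 with array weights, and -0.45 to 0.35 in the leave-outs, 4 of which turned it and read another probe set. Of genes not called, leave-outs gave -0.26 to 0.11 for S100a9, -0.28 to 0.13 for Tiparp, and -0.47 to 0.19 for Vnn1 (0.01 without Null 10 mg/kg replicate 1).

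Log2 RMA values give no counts, so that depth does not apply and the number of arrays limits the precision.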
